A study of Homo sapiens with 12 samples.

Results

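The genes described here are those of the carrier families that move amino acids across the plasma membrane, namely the SLC1, SLC6, SLC7, SLC36, SLC38 and SLC43 families with the partner proteins SLC3A1 and SLC3A2. Matching by symbol gave 54 of the 36615 genes in the deposited table. Of the 54, 29 had at least 1 FPKM (a fragment level scaled to transcript length and library size) in at least 3 libraries and were tested. Poly(A) RNA was sequenced from HCT116, a human colon cancer line, as 12 libraries in 4 groups of 3. Cells of 2 genotypes, p53+/+ and p53-/-, each carried either a scrambled (SCR) control or a depletion (KD) of Mina53, the JmjC-domain oxygenase encoded by RIOX2. All 12 libraries come from HCT116 background cells, and no untransfected or untreated cells are among them. The sources used here give neither the depletion reagent nor the harvest time, and do not say how many clones the p53-/- line represents or if replicates were grown separately. The p-values therefore reflect the spread among these libraries, which may be technical.

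A cell takes up most essential amino acids through exchangers, which bring in 1 molecule for each one they let out, and through carriers driven by the sodium or proton gradient. Several SLC7 proteins reach the surface only when linked to the glycoprotein SLC3A2 (CD98 heavy chain, 4F2hc), so that heavy and light chains form 1 working unit. In colon cancer cells the leucine exchanger SLC7A5 (LAT1), the glutamine exchanger SLC1A5 (ASCT2) and SLC3A2 are well known for high expression, and transcription of many of these genes responds to ATF4, a factor of the amino acid starvation response. Not every family member fits the shared name: SLC38A7, SLC38A9 and SLC36A1 are known from lysosomes, SLC6A8 carries creatine, SLC6A6 carries taurine, and SLC43A3 is known as a nucleobase carrier.

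RIOX2 was at 7.49 ± 0.252 FPKM in p53+/+ controls and at 2.72 ± 0.291 after depletion (mean ± SD, n = 3 libraries, here and below), and at 9.09 ± 0.211 and 2.02 ± 0.242 in p53-/- cells. The deposited values summed to between 348822 and 372821 FPKM per library, and the read depth is unknown. Mitochondrial transcripts made up 14.1% ± 0.270 of the total in p53+/+ controls, 18.6% ± 0.737 after depletion, 10.5% ± 0.476 in p53-/- controls and 14.1% ± 0.284 after depletion. All 6 epithelial markers were expressed, with a sum between 1891 and 2456 FPKM in every library, carried mostly by keratins. Its members moved differently: CDH1 was at 19.7 ± 0.275 FPKM in p53+/+ controls, 10.5 ± 0.355 after depletion, 9.004 ± 0.387 in p53-/- controls and 5.39 ± 0.179 after depletion. KRT18 was at 519 ± 8.46, 348 ± 10.8, 465 ± 9.56 and 248 ± 4.12 FPKM in the same order, and KRT19 at 632 ± 18.4, 767 ± 48.4, 466 ± 22.0 and 646 ± 26.8. Of the fibroblast markers, 3 of 5 listed were in the table and COL1A1 alone passed the filter. Their sum was 6.65 to 7.35 FPKM in p53+/+ controls, 10.1 to 10.7 after depletion, 6.96 to 7.51 in p53-/- controls and 11.6 to 12.1 after depletion, while COL1A2 and COL3A1 were near 0. Of the immune markers, 4 of 5 were in the table, CD68 alone passed, and their sum was 7.07 to 8.69, 3.93 to 4.75, 7.89 to 9.69 and 6.79 to 8.11 FPKM in the same order, with PTPRC near 0. The part of these markers and of the mitochondrial share in the results below was not tested.

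A group of 4 genes supplied most of the transporter RNA in every group. SLC38A2, SLC7A5, SLC3A2 and SLC1A5 together made up between 65.7% and 73.5% of the summed level of all 54 genes. The summed level was 542 to 571 FPKM in p53+/+ controls and 561 to 571 after depletion, and it was 873 to 882 in p53-/- controls and 780 to 795 after depletion. The p53-/- libraries therefore lay above all p53+/+ libraries, and within p53-/- cells the depleted libraries lay below the controls, whereas the p53+/+ groups overlapped. In bulk RNA fewer cells of a type and less RNA per cell cannot be told apart. The order of the genes changed between groups. In p53+/+ controls SLC38A2 was highest at 150.5 ± 3.61 FPKM, followed by SLC7A5 at 82.9 ± 5.34, SLC3A2 at 72.1 ± 2.60 and SLC1A5 at 63.8 ± 1.91, and no neighbours in that order overlapped. After depletion of p53+/+ cells the order was SLC1A5 at 138 ± 5.74, SLC38A2 at 90.8 ± 7.20, SLC3A2 at 77.2 ± 2.08 and SLC7A5 at 69.2 ± 1.90, again without overlap. In p53-/- controls SLC7A5 led at 200.1 ± 5.09, ahead of SLC3A2 at 171 ± 7.399, SLC1A5 at 149 ± 5.29 and SLC38A2 at 120.4 ± 11.6. In depleted p53-/- cells SLC1A5 at 175 ± 4.55 and SLC3A2 at 175 ± 4.43 overlapped, as did SLC7A5 at 109 ± 1.996 and SLC38A2 at 107 ± 9.41 further down.

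**Figure D1:**
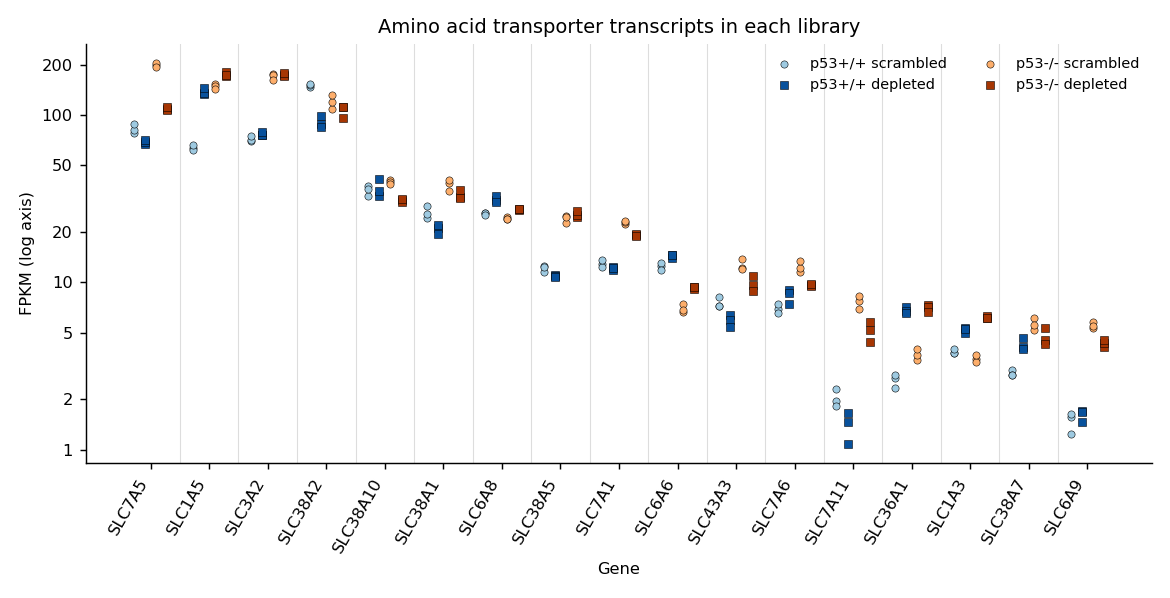
FPKM in each library (points) for the 17 genes whose mean reached 5 FPKM in 1 group or more, by group, on a log axis. SLC38A2, SLC7A5, SLC3A2 and SLC1A5 lie above all other genes in each group, and SLC1A5 of p53+/+ controls lies below the other 3 groups.

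The remaining genes fell into a middle and a low range. Of the 29 tested genes, 17 had a group mean of at least 5 FPKM and 12 did not. Below the filter were 25 genes, of which 23 never exceeded 0.5 FPKM and none was listed at 0 in all 12 libraries. The other 2 were SLC6A13, a GABA carrier with a highest library at 0.887 FPKM, and SLC6A12, a betaine and GABA carrier with a highest library at 0.549. The group means of SLC6A13 were 0.258 ± 0.0942 FPKM in p53+/+ controls, 0.769 ± 0.104 after depletion, 0.0924 ± 0.0842 in p53-/- controls and 0.635 ± 0.223 after depletion. By family, 4 of 7 SLC1 genes, 1 of 2 SLC3 genes, 5 of 16 SLC6 genes, 6 of 12 SLC7 genes, 2 of 4 SLC36 genes, 8 of 10 SLC38 genes and all 3 SLC43 genes passed the filter. SLC1A4 passed through its p53-/- libraries and SLC38A3 through the 3 p53+/+ control libraries alone, so a difference for those genes is partly set by the filter.

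After depletion of p53+/+ cells, 9 of the 29 tested genes rose, 8 fell and 12 did not pass the test (limma on log2(FPKM + 1), Benjamini-Hochberg adjusted p under 0.05 over 13728 genes). That is 58.6% of the members against 60.7% of all genes called (28.5% higher and 32.2% lower), a share near the background. In p53-/- cells 9 rose, 13 fell and 7 did not pass, which is 75.9% against a background of 58.8% (28.9% higher and 29.9% lower). Called changes of at least 0.5 on the log2 scale were found for 5 members in p53+/+ cells (17.2%, background 20.3%) and for 6 in p53-/- cells (20.7%, background 17.5%). The median log2 fold change was 0.03 for the members and -0.02 for all genes in p53+/+ cells, against -0.17 and -0.00 without p53. With mitochondrial genes left out and values rescaled, the split over all genes in p53+/+ depletion moved from 3916 higher and 4418 lower to 4806 higher and 3533 lower.

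**Figure D2:**
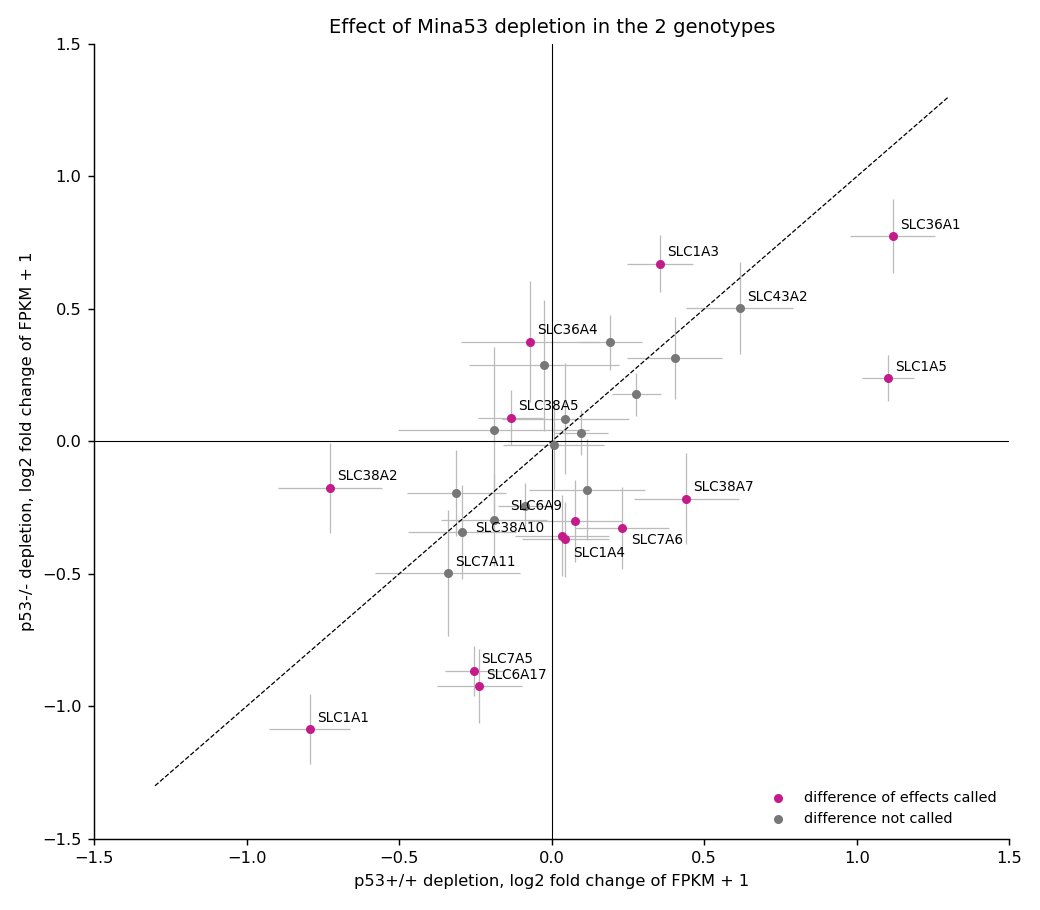
Log2 fold change after Mina53 depletion in p53+/+ cells (horizontal axis) against p53-/- cells (vertical axis) for the 29 tested genes, with 95% confidence intervals and the line of equal effects. Genes whose effects differed between genotypes are coloured, and SLC1A5, at 1.10 and 0.24, lies farthest from the line.

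The depletion comparisons of the genotypes share no libraries and can be set side by side. SLC1A3, SLC1A5, SLC36A1, SLC43A2, SLC6A6, SLC6A8 and SLC7A8 rose in both genotypes. SLC1A1, SLC38A1, SLC43A3, SLC6A17, SLC7A11 and SLC7A5 fell in both. These 13 genes are 76.5% of the 17 called in p53+/+ cells and 59.1% of the 22 called in p53-/- cells, while over all genes 5371 were called in the same direction, 64.4% and 66.5% of the called. SLC38A7 and SLC7A6 rose in p53+/+ cells and fell in p53-/- cells. These 2 are 11.8% and 9.09% of the called members, while over all genes 509 were called in opposite directions, 6.11% and 6.31% of the called. The effect itself differed between genotypes for 14 of the 29 genes (48.3%, background 32.9%), with 4 higher (background 16.7%) and 10 lower (background 16.2%) in p53-/- than in p53+/+ cells. SLC1A4 is counted among the 10 lower, though it passed the filter through its p53-/- libraries. For 6 of the 14 genes the difference was at least 0.5 on the log2 scale (20.7%, background 9.92%). The 4 higher ones became 2 with no filter on low values, and also without p53+/+ depleted replicate 3 or p53-/- control replicate 2.

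The heavy chain SLC3A2, which carries the light chains to the cell surface, was at 70.0, 71.3 and 75.0 FPKM in p53+/+ controls and at 76.3, 75.7 and 79.6 after depletion. In p53-/- cells it was at 176, 174 and 162 in controls and at 173, 172 and 179.7 after depletion. The p53-/- libraries lay above all p53+/+ libraries, while depletion gave changes of 0.10 (log2, adjusted p = 0.0510, 95% interval 0.01 to 0.18) in p53+/+ and 0.03 (adjusted p = 0.496, interval -0.05 to 0.12) in p53-/- cells. The p53+/+ value passed with TMM-type scaling (adjusted p = 0.0353), with mitochondrial genes left out (adjusted p = 0.00122) and without any 1 of p53+/+ control replicate 3 and p53-/- control replicates 1 and 3 (adjusted p between 0.0249 and 0.0492). Between genotypes SLC3A2 was higher in p53-/- cells, by 1.23 (log2 fold change, ± 0.04 SE, adjusted p = 2.04e-10) in controls and 1.17 (adjusted p = 2.88e-10) in depleted cells.

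SLC7A5, the light chain for leucine and other large neutral amino acids, was at 78.5, 81.3 and 88.8 FPKM in p53+/+ controls and 67.5, 68.7 and 71.3 after depletion. The p53-/- values were 201, 205 and 195 in controls and 109, 108 and 112 after depletion. All depleted libraries lay below the controls of their genotype, at 83.5% of the control mean in p53+/+ and 54.7% in p53-/- cells. The fall was -0.26 ± 0.04 on the log2 scale (SE, adjusted p = 0.000255) and -0.87 ± 0.04 (adjusted p = 1.11e-08), and the difference of the effects was -0.61 (adjusted p = 2.43e-05). Between the controls SLC7A5 was higher in p53-/- cells by 1.26 (log2, adjusted p = 3.12e-10). Symbols of SLC7A5-like copies could take reads from it: SLC7A5P1 varied between 0.0740 and 3.80 FPKM and SLC7A5P2 between 2.45 and 4.03, far below the gene itself.

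SLC7A11 (xCT) is the light chain that exchanges extracellular cystine for glutamate. It was at 1.95, 1.83 and 2.29 FPKM in p53+/+ controls and 1.66, 1.45 and 1.08 after depletion, and at 6.90, 7.71 and 8.25 in p53-/- controls and 5.16, 5.83 and 4.38 in depleted p53-/- cells. Every p53-/- library lay above every p53+/+ library, with a control difference of 1.51 ± 0.11 (log2, SE, adjusted p = 1.81e-07), and the depleted libraries of each genotype lay below its controls. SLC7A11 fell after depletion in p53+/+ cells (-0.34, adjusted p = 0.0171) and in p53-/- cells (-0.50, adjusted p = 0.00187), and the difference of the effects did not pass (-0.16, adjusted p = 0.465, 95% interval -0.49 to 0.18). The call in p53+/+ cells was lost with no low-value filter (adjusted p = 0.0590) and without any 1 of p53+/+ control replicate 3 and p53+/+ depleted replicate 3 (adjusted p between 0.0701 and 0.0765), and with a pseudocount of 0.1 the log2 change was -0.52.

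SLC7A6 and SLC7A8 also pair with SLC3A2. SLC7A6 (y+LAT2), which exchanges cationic for neutral amino acids, was at 6.92, 6.55 and 7.44 FPKM in p53+/+ controls and 9.01, 8.67 and 7.42 after depletion. Values in p53-/- cells were 11.6, 12.1 and 13.4 in controls and 9.63, 9.53 and 9.78 after depletion, and it was the one light chain whose called changes had opposite directions. The rise in p53+/+ cells was 0.23 (adjusted p = 0.0140) with 1 depleted library inside the control range, the fall in p53-/- cells was -0.33 (adjusted p = 0.00175), and the difference was -0.56 (adjusted p = 0.00137). The rise was lost without any 1 of p53+/+ control replicate 2 and p53+/+ depleted replicates 1 and 2 (adjusted p between 0.0512 and 0.0611). The neighbouring SLC7A6OS was at 3.92 to 7.91 FPKM, and strand use in the counting is not given, so shared reads cannot be told apart. SLC7A8 (LAT2), a second carrier of large neutral amino acids, had control and depleted means of 2.16 ± 0.253 and 3.17 ± 0.0638 FPKM in p53+/+ cells, and of 1.97 ± 0.149 and 2.69 ± 0.188 in p53-/- cells. It rose in both genotypes, by 0.40 and 0.32 (adjusted p = 0.000362 and 0.00225), opposite to SLC7A5. SLC3A1, the heavy chain of the kidney and gut type carriers, its partner SLC7A9 and the light chains SLC7A7 and SLC7A10 were below the filter.

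The balance of light to heavy chain RNA moved with depletion. The ratio of SLC7A5 to SLC3A2 was 1.12 to 1.18 in p53+/+ controls and 0.885 to 0.908 after depletion, and 1.14 to 1.20 in p53-/- controls and 0.620 to 0.632 after depletion. No depleted library overlapped a control library, while the controls of the genotypes overlapped. SLC7A5 made up between 82.7% and 90.8% of the summed light chain RNA in each library. With 3 libraries against 3 the smallest two-sided exact permutation p is 0.1, so these ratios are given as values without a test.

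**Figure D3:**
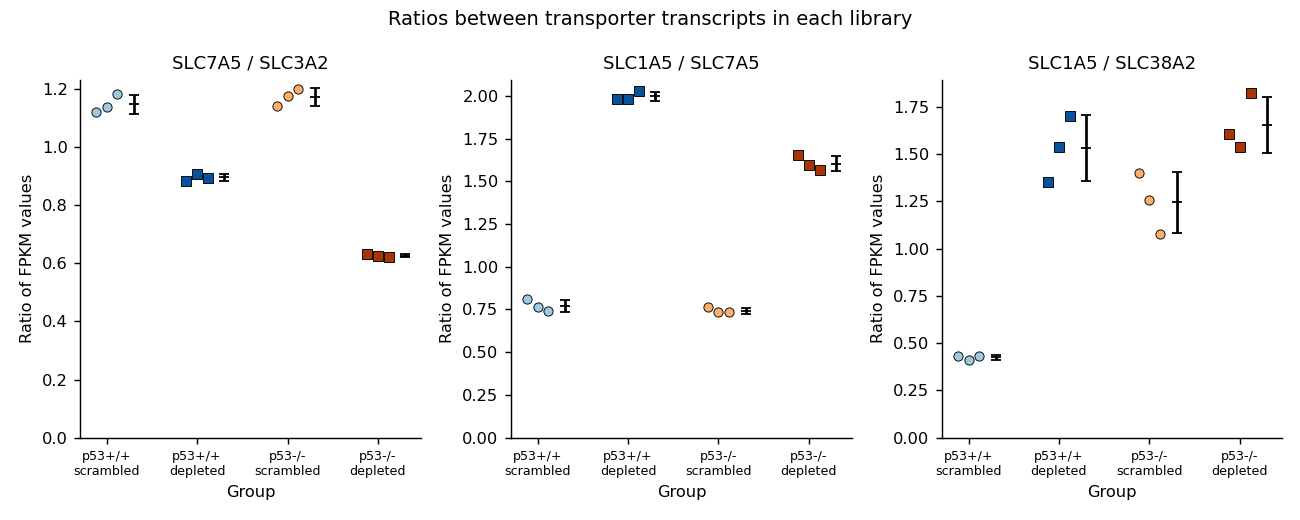
Ratios of FPKM within each library (points) for SLC7A5 over SLC3A2, SLC1A5 over SLC7A5 and SLC1A5 over SLC38A2, by group, with the mean ± SD beside the points and the axis from 0. SLC7A5 over SLC3A2 is above 1.1 in controls of both genotypes and below 0.91 in depleted libraries, and SLC1A5 over SLC7A5 moves the opposite way.

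SLC1A5 (ASCT2), the sodium-dependent exchanger through which many tumour cells take up glutamine, rose together with SLC36A1 further than any other tested member in p53+/+ cells on the log2(FPKM + 1) scale. It was at 63.5, 62.1 and 65.9 FPKM in p53+/+ controls and 134, 136 and 145 after depletion. Those of p53-/- cells were 153, 150.3 and 143 in controls and 180.4, 172 and 174 after depletion. The p53+/+ controls stood apart from the other 3 groups: depleted p53+/+ cells reached 217% of their controls and overlapped p53-/- controls, and depleted p53-/- cells reached 118% of theirs. The log2 fold changes after depletion were 1.10 ± 0.04 (SE, adjusted p = 6.27e-10) and 0.24 ± 0.04 (adjusted p = 0.000248). Their difference was -0.86 ± 0.06 (adjusted p = 1.11e-06). The genotype difference was accordingly 1.21 in controls and 0.34 in depleted cells (adjusted p = 2.22e-10 and 9.41e-06). SLC1A5 and SLC7A5 can act in series, glutamine brought in by the first being exchanged for leucine by the second, and their ratio was 0.742 to 0.809 in p53+/+ controls, 1.98 to 2.03 after depletion, 0.732 to 0.762 in p53-/- controls and 1.56 to 1.65 after depletion.

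SLC1A4 (ASCT1), the related exchanger of alanine, serine, cysteine and threonine, was near the filter in p53+/+ cells. It was at 0.840, 0.864 and 0.868 FPKM in p53+/+ controls and 1.03, 0.780 and 0.951 after depletion, and at 4.11, 4.03 and 3.94 in p53-/- controls and 3.07, 2.92 and 2.69 in depleted p53-/- cells. All p53-/- libraries lay above all p53+/+ libraries, by 1.44 ± 0.06 in controls (log2, SE) and 1.02 in depleted cells (1.56 with a pseudocount of 0.1), a description without a test because the gene passed the filter through the p53-/- libraries. It fell after depletion in p53-/- cells (-0.37, adjusted p = 0.000371), and the change in p53+/+ cells was 0.05 (adjusted p = 0.567). The difference of the effects was -0.41 (log2). It is likewise given without a test, as the p53+/+ values lay near or below the 1 FPKM of the filter.

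Promoters are shown for 3 members chosen among those that moved with genotype or depletion and hold a motif. The 2 motifs are of factors known to regulate amino acid and lysosomal genes. They are TGATGNAA, the core of the CHOP-ATF composite element bound by ATF4, and CACGTG, the E-box bound by MYC and TFEB family factors. Both strands were searched in RefSeq promoters of GRCh38.p14, 250 bases before to 50 after each start, and no member's match of one motif overlapped a match of the other. TGATGNAA was in 3.62% of 35116 promoters and CACGTG in 7.26%. Of the 29 tested members 24 had an entry. TGATGNAA was found for 6 of them (SLC1A3, SLC1A4, SLC1A5, SLC38A1, SLC3A2 and SLC7A1) and CACGTG for 8 (SLC1A5, SLC36A1, SLC38A5, SLC38A7, SLC43A1, SLC6A16, SLC7A5 and SLC7A8), against 4.46% and 8.77% of all genes. A gene with several starts had several chances of a match. SLC38A3, SLC43A3, SLC6A6, SLC7A11 and SLC7A2 had no entry. SLC1A1, SLC38A2, SLC43A2, SLC6A9 and SLC6A17, which also moved strongly, had an entry and held neither motif. The same was true of SLC36A4, SLC38A6, SLC38A9, SLC38A10, SLC6A8 and SLC7A6. In the 3 sequences that follow capitals mark a motif, read 5′ to 3′ on the strand of the gene. The first, chr2:64989149-64989448 on the plus strand, holds the reverse complement of TGATGCAA from base -7 to 1, where base 1 is the start. The second, chr16:87869458-87869757 on the minus strand, holds CACGTG from -130 to -125. The third, chr5:151447353-151447652 on the plus strand, holds CACGTG from -43 to -38 and again from -8 to -3.
SLC1A4: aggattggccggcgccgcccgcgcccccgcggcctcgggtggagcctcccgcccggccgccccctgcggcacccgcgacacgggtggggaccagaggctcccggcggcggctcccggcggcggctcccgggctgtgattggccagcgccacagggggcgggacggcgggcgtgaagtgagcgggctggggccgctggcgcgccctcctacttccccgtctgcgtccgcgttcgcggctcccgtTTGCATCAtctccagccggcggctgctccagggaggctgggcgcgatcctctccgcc
SLC7A5: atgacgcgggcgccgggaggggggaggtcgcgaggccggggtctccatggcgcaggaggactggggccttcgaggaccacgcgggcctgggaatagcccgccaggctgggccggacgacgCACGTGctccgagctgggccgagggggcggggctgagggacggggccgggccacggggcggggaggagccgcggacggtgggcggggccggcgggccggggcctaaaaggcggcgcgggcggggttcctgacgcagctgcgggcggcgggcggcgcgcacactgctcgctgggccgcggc
SLC36A1: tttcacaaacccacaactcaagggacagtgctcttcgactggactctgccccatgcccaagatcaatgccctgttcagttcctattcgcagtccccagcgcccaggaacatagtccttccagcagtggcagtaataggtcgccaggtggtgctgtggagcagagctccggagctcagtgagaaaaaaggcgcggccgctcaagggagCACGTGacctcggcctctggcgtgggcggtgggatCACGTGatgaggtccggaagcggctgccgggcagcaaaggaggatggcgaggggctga
SLC1A5 has 3 listed starts, and its matches were in the 2 downstream ones. SLC1A4 and SLC36A1 have 2 listed starts each, and the one not shown held neither motif. SLC3A2 had TGATGNAA downstream of the start, at 38 to 45. A match is a sequence in this window and does not show that a factor binds there, and no binding was measured.

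The SLC38 genes are sodium-coupled carriers of small neutral amino acids and glutamine. SLC38A2 (SNAT2), known to be induced when amino acids are scarce, was at 146, 152 and 153 FPKM in p53+/+ controls and 98.8, 88.5 and 85.0 after depletion. Levels in p53-/- cells were 109, 119 and 132 in controls and 112, 112 and 95.7 after depletion, with overlapping groups. The p53+/+ libraries separated completely, with depleted cells at 60.3% of the control mean, a log2 fold change of -0.73 ± 0.08 (SE, adjusted p = 5.95e-06). In p53-/- cells the change was -0.17 (adjusted p = 0.0729, 95% interval -0.34 to -0.00), and it passed without p53-/- control replicate 1 (adjusted p = 0.0229). The difference of the effects was 0.55 (adjusted p = 0.00260), opposite in sign to that of SLC1A5. The ratio of SLC1A5 to SLC38A2 thus went from 0.409 to 0.434 in p53+/+ controls to 1.35 to 1.70 after depletion, and from 1.08 to 1.40 in p53-/- controls to 1.54 to 1.82.

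SLC38A1 (SNAT1), the other widely expressed carrier of the family, was at 24.1, 25.7 and 28.6 FPKM in p53+/+ controls and 21.1, 22.0 and 19.4 after depletion, and at 35.0, 39.2 and 40.9 in p53-/- controls and 32.6, 31.8 and 35.7 in depleted p53-/- cells. It fell in p53+/+ cells (-0.31, adjusted p = 0.00300) and in p53-/- cells (-0.20, adjusted p = 0.0393), where 1 depleted library lay above the lowest control. The p53-/- call was lost with no low-value filter (adjusted p = 0.118), with mitochondrial genes left out (adjusted p = 0.102), with no variance trend (adjusted p = 0.0527) and without any 1 of p53-/- control replicates 2 and 3 and p53-/- depleted replicates 1 and 2 (adjusted p between 0.101 and 0.141). SLC38A1 was higher in p53-/- cells, by 0.54 in controls (adjusted p = 4.96e-05). SLC38A5 (SNAT5), a carrier of glutamine, histidine and serine that exchanges protons, was at 12.5, 11.5 and 12.3 FPKM in p53+/+ controls and 11.1, 10.97 and 10.7 after depletion, and at 24.9, 22.6 and 24.4 in p53-/- controls and 24.8, 25.1 and 26.9 in depleted p53-/- cells. Every p53-/- library lay above every p53+/+ library, by 0.93 in controls and 1.16 in depleted cells (log2, adjusted p = 1.05e-08 and 1.40e-09). The fall after depletion of p53+/+ cells was small (-0.14, adjusted p = 0.0283) and was lost with no low-value filter (adjusted p = 0.0538), with TMM-type scaling (adjusted p = 0.0624), with mitochondrial genes left out (adjusted p = 0.320) and without any 1 of p53+/+ control replicates 1 and 3 and p53+/+ depleted replicates 2 and 3 (adjusted p between 0.0577 and 0.0961). The difference of its effects, 0.22 (adjusted p = 0.0244), was lost with no low-value filter (adjusted p = 0.0521), with mitochondrial genes left out (adjusted p = 0.0503) and without any 1 of p53+/+ control replicates 1 and 3, p53+/+ depleted replicate 3, p53-/- control replicate 2 and p53-/- depleted replicate 3 (adjusted p between 0.0523 and 0.0583). SLC38A10, whose transport role is little known, had means of 35.6 ± 2.31, 36.6 ± 4.38, 39.9 ± 1.13 and 31.0 ± 0.677 FPKM over the 4 groups and fell after depletion in p53-/- cells (-0.36, adjusted p = 0.000963), with a difference of effects of -0.39 (adjusted p = 0.0112).

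The low members of the family were SLC38A3 and SLC38A6. SLC38A3 (SNAT3), the glutamine carrier of liver and kidney, was at 1.11, 1.08 and 1.03 FPKM in p53+/+ controls, 0.815, 0.804 and 0.840 after depletion, 0.627, 0.440 and 0.625 in p53-/- controls and 0.225, 0.205 and 0.392 after depletion. The groups followed that order without overlap in each step. SLC38A3 passed the filter through the p53+/+ controls alone, so its p53+/+ change of -0.19 (log2) is given without a test. All p53-/- values were below the 1 FPKM of the filter. In these cells the fall was -0.30 (adjusted p = 0.00657), and -0.85 with a pseudocount of 0.1. SLC38A6 ranged from 0.733 to 1.65 FPKM over all libraries and passed no test.

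SLC38A7 and SLC38A9 sit on lysosomes, where the first exports glutamine and the second senses arginine for mTORC1. SLC38A7 was at 3.004, 2.80 and 2.79 FPKM in p53+/+ controls and 4.64, 4.11 and 4.004 after depletion, and at 6.15, 5.15 and 5.56 in p53-/- controls and 4.51, 5.31 and 4.30 in depleted p53-/- cells. It rose without overlap in p53+/+ cells (0.44, adjusted p = 0.000388) and fell with overlap in p53-/- cells (-0.22, adjusted p = 0.0326), and the difference was -0.66 (adjusted p = 0.000934). The p53-/- fall was lost with no low-value filter (adjusted p = 0.0839), with mitochondrial genes left out (adjusted p = 0.0736), with the compared groups fitted alone (adjusted p = 0.0683) and without any 1 of p53-/- control replicates 1 and 3 and p53-/- depleted replicates 1 and 3 (adjusted p between 0.0605 and 0.129). SLC38A9 had control and depleted means of 4.31 ± 0.706 and 4.22 ± 0.782 FPKM in p53+/+ cells, and of 3.45 ± 0.0755 and 4.43 ± 0.368 in p53-/- cells. Its rise in p53-/- cells (0.29, adjusted p = 0.0455) was lost with no low-value filter (adjusted p = 0.135) and without any 1 of p53+/+ depleted replicate 2, p53-/- control replicates 1, 2 and 3 and p53-/- depleted replicates 1, 2 and 3 (adjusted p between 0.0503 and 0.145).

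SLC36A1 (PAT1), a proton-coupled carrier of small amino acids known from lysosomes, had, with SLC1A5, the largest change on the log2(FPKM + 1) scale after depletion in p53+/+ cells among the tested members. It was at 2.66, 2.34 and 2.78 FPKM in p53+/+ controls and 7.09, 6.75 and 6.53 after depletion, and at 3.46, 3.67 and 3.97 in p53-/- controls and 7.35, 7.08 and 6.69 in depleted p53-/- cells. All depleted libraries lay above all controls, at 262% of the control mean in p53+/+ and 190.3% in p53-/- cells. The rise was 1.12 ± 0.06 (log2, SE, adjusted p = 2.54e-08) in p53+/+ and 0.78 ± 0.06 (adjusted p = 6.62e-07) in p53-/- cells, and the difference of -0.34 passed (adjusted p = 0.0121). The depleted groups of the genotypes overlapped, and the difference came with a higher p53-/- control (0.39, adjusted p = 0.000186). SLC36A4 (PAT4), a relative of high affinity for tryptophan and proline, had control and depleted means of 2.73 ± 0.383 and 2.54 ± 0.112 FPKM in p53+/+ cells, and of 2.88 ± 0.528 and 4.01 ± 0.430 in p53-/- cells. It rose in p53-/- cells (0.38, adjusted p = 0.00811). The difference of effects, 0.45 (adjusted p = 0.0354), was lost with no low-value filter (adjusted p = 0.112) and without any 1 of p53+/+ control replicates 1 and 2, p53+/+ depleted replicates 1, 2 and 3, p53-/- control replicates 2 and 3 and p53-/- depleted replicates 1 and 2 (adjusted p between 0.0522 and 0.0858).

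The carriers of acidic amino acids moved in opposite directions. SLC1A1 (EAAT3), which takes up glutamate, aspartate and cysteine, was at 5.09, 4.29 and 4.52 FPKM in p53+/+ controls and 2.13, 2.36 and 2.25 after depletion. In p53-/- cells it was at 4.77, 4.65 and 4.73 in controls and 1.72, 1.62 and 1.74 after depletion. The depleted libraries lay far below the controls in both genotypes, at 48.5% and 35.9% of the control means, while the controls of the genotypes overlapped. The fall was -0.79 ± 0.06 (log2, SE, adjusted p = 3.14e-07) and -1.09 ± 0.06 (adjusted p = 2.82e-08). Their difference of -0.29 (adjusted p = 0.0212) was lost without any 1 of p53+/+ control replicate 2 and p53+/+ depleted replicate 2 (adjusted p between 0.0532 and 0.0557). SLC1A3 (EAAT1), a glutamate carrier best known from astrocytes, was at 3.78, 3.76 and 4.02 FPKM in p53+/+ controls, 5.001, 5.37 and 5.26 after depletion, 3.49, 3.34 and 3.70 in p53-/- controls and 6.11, 6.28 and 6.14 after depletion. All depleted libraries lay above all controls, with rises of 0.35 and 0.67 (adjusted p = 5.72e-05 and 3.00e-07) and a difference of 0.32 (adjusted p = 0.00496).

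The cationic carriers differed between genotypes in opposite directions. SLC7A1 (CAT1), the main arginine and lysine carrier of dividing cells, was at 12.9, 12.4 and 13.6 FPKM in p53+/+ controls and 12.3, 11.9 and 12.2 after depletion, and at 22.2, 23.0 and 23.2 in p53-/- controls and 19.1, 19.5 and 18.8 in depleted p53-/- cells. The genotypes did not overlap, and SLC7A1 was higher in p53-/- controls by 0.77 ± 0.04 (log2, SE, adjusted p = 1.14e-08). Depletion lowered it in p53-/- cells (-0.24, adjusted p = 0.000238), and the p53+/+ change was -0.09 (adjusted p = 0.0760), which passed without p53+/+ control replicate 2 (adjusted p = 0.0323). SLC7A2 (CAT2) had control and depleted means of 3.07 ± 0.278 and 3.09 ± 0.186 FPKM in p53+/+ cells, and of 1.60 ± 0.0551 and 1.58 ± 0.227 in p53-/- cells. It was lower in p53-/- than in p53+/+ cells, with log2 differences of -0.65 in controls and -0.66 in depleted cells (adjusted p = 1.26e-05 and 8.98e-06), and passed no depletion test.

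The SLC43 genes encode sodium-independent carriers. SLC43A2 (LAT4), which lets leucine, phenylalanine and methionine pass down their gradient, was at 2.47, 2.69 and 2.41 FPKM in p53+/+ controls and 4.20, 4.25 and 4.74 after depletion, and at 1.62, 1.31 and 1.37 in p53-/- controls and 2.59, 2.10 and 2.69 in depleted p53-/- cells. It rose without overlap in both genotypes, by 0.62 and 0.50 (adjusted p = 2.95e-05 and 0.000170), and was lower in p53-/- controls (-0.54, adjusted p = 8.81e-05). SLC43A1 (LAT3), with the same substrates, had control and depleted means of 1.37 ± 0.207 and 1.56 ± 0.138 FPKM in p53+/+ cells, and of 2.55 ± 0.256 and 2.12 ± 0.231 in p53-/- cells. It passed no depletion test with all libraries, was higher in p53-/- controls (0.59, adjusted p = 8.81e-05), and in p53-/- depletion passed without p53-/- control replicate 3 (adjusted p = 0.0428). SLC43A3 fell in both genotypes, from 7.51 ± 0.562 to 5.94 ± 0.502 FPKM in p53+/+ and from 12.7 ± 0.901 to 9.82 ± 1.06 in p53-/- cells (log2 fold changes -0.29 and -0.34, adjusted p = 0.00753 and 0.00325).

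The SLC6 family holds sodium and chloride coupled carriers, many of them for neurotransmitters, and 11 of its 16 genes were below the filter. SLC6A8, the creatine carrier, was the highest, with means of 25.6 ± 0.453 FPKM in p53+/+ controls, 31.3 ± 1.404 after depletion, 24.1 ± 0.417 in p53-/- controls and 27.4 ± 0.169 after depletion. It rose in both genotypes, by 0.28 and 0.18 (adjusted p = 3.34e-05 and 0.00122). SLC6A6, the taurine carrier, was at 12.5, 13.0 and 11.9 FPKM in p53+/+ controls and 14.7, 13.99 and 14.5 after depletion, and at 7.41, 6.61 and 6.83 in p53-/- controls and 9.35, 9.17 and 9.37 in depleted p53-/- cells. It rose in both, by 0.19 and 0.37 (adjusted p = 0.00390 and 2.85e-05), and was lower in p53-/- controls (-0.76, adjusted p = 5.46e-08).

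SLC6A9 (GlyT1), the glycine carrier, was like SLC1A4 higher in p53-/- cells and fell there after depletion. It was at 1.57, 1.25 and 1.64 FPKM in p53+/+ controls, 1.70, 1.46 and 1.68 after depletion, 5.83, 5.36 and 5.47 in p53-/- controls and 4.12, 4.36 and 4.50 after depletion. The p53-/- libraries lay above all p53+/+ libraries, by 1.40 ± 0.07 in controls (log2, SE, adjusted p = 9.01e-09). Depletion lowered it in p53-/- cells (-0.30, adjusted p = 0.00322), with a difference of effects of -0.38 (adjusted p = 0.0137). SLC6A17 (NTT4), a vesicular carrier of neutral amino acids known from neurons, was at 3.61, 3.899 and 3.20 FPKM in p53+/+ controls, 2.89, 2.96 and 2.77 after depletion, 2.62, 2.45 and 2.59 in p53-/- controls and 0.912, 0.846 and 0.859 after depletion. The groups descended in that order without overlap, and depleted p53-/- cells were at 34.2% of their controls against 80.4% in p53+/+ cells. The falls were -0.24 and -0.92 (adjusted p = 0.00653 and 1.61e-07), the difference was -0.69 (adjusted p = 0.000172), and with a pseudocount of 0.1 the p53-/- fall was -1.45. SLC6A16, an orphan carrier, had means between 2.14 and 2.89 FPKM and passed no depletion test.

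Between genotypes more of the carriers were higher without p53 than lower. In the controls 14 of 29 were higher, 7 lower and 8 did not pass (72.4% called, background 63.4%, of which 36.7% higher and 26.6% lower), and in depleted cells 15 were higher, 9 lower and 5 did not pass (82.8%, background 64.3%, of which 37.0% higher and 27.3% lower). Called changes of at least 0.5 on the log2 scale were found for 16 members in controls (55.2%, background 21.8%), of which 13 were higher and 3 lower. In depleted cells there were 14 (48.3%, background 23.9%), of which 9 were higher and 5 lower. The median log2 difference of the members was 0.16 in controls and 0.19 in depleted cells, against 0.06 for all genes in both. With TMM-type scaling the medians of all genes were 0.017 in controls and 0.004 in depleted cells. The genes called higher and lower were then 4440 and 4088 in controls and 4313 and 4374 in depleted cells. Among the members, this scaling also called SLC1A3, SLC38A9 and SLC6A8 lower in controls (adjusted p = 0.0191, 0.0414 and 0.00841). In depleted cells SLC38A2 and SLC7A6 were no longer called higher (adjusted p = 0.0712 and 0.111), and SLC6A16 was called lower (adjusted p = 0.0228). With mitochondrial genes left out the medians of all genes were 0.079 and 0.048. Both genotype comparisons and both depletion comparisons draw on the same 4 groups, so a high p53-/- control enters more than 1 of them. In both comparisons SLC1A4 is counted among the higher and SLC38A3 among the lower members, and each passed the filter through its higher genotype. Of the members that passed it in both genotypes, those with the largest control difference on the log2(FPKM + 1) scale were SLC7A11, SLC6A9, SLC7A5, SLC3A2 and SLC1A5, from 1.51 down to 1.21. SLC6A6, SLC7A2 and SLC43A2 were the 3 lower ones of at least 0.5. With 1 line of each genotype, the p53 status and any other difference between the lines cannot be told apart.

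**Figure D4:**
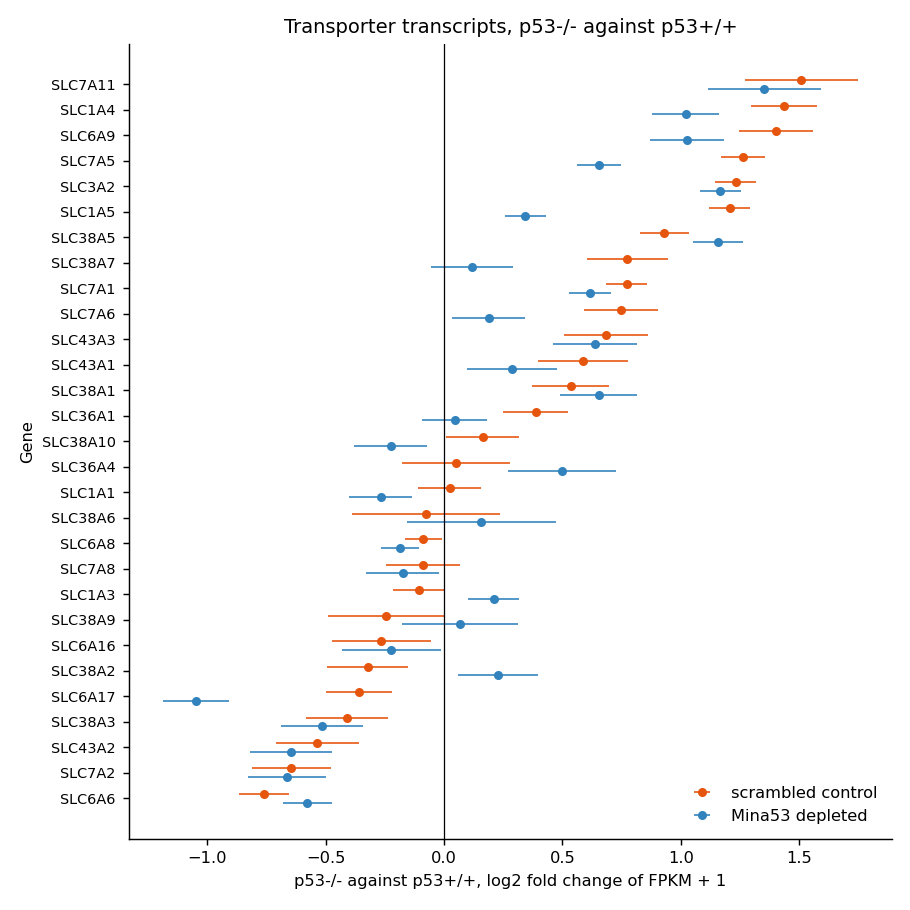
Log2 difference of p53-/- minus p53+/+ cells for the 29 tested genes, in scrambled controls and in depleted cells, with 95% confidence intervals. SLC1A5 and SLC7A5 lie at 1.21 and 1.26 in controls and at 0.34 and 0.65 in depleted cells, whereas SLC3A2 stays at 1.23 and 1.17.

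Other genes of amino acid supply were counted in 8 lists. Their counts are read against all genes, of which 28.5% were called higher and 32.2% lower in p53+/+ depletion (60.7% in all), 28.9% higher and 29.9% lower in p53-/- depletion (58.8% in all), and 36.7% higher and 26.6% lower between controls. Of the enzymes of serine, glycine and related synthesis, 1 of 12 tested rose and 8 fell in p53+/+ depletion, and 1 rose and 10 fell in p53-/- depletion, (background 28.5% higher and 32.2% lower, then 28.9% and 29.9%), with median log2 changes of -0.28 and -0.49 against -0.02 and -0.00 over all genes. MTHFD2, the mitochondrial folate enzyme, fell from 40.2 ± 1.79 to 22.1 ± 1.24 FPKM in p53+/+ cells (-0.84, adjusted p = 2.14e-08) and from 58.3 ± 1.55 to 26.1 ± 0.788 in p53-/- cells (-1.13, adjusted p = 2.51e-09). PYCR1 and ALDH18A1, of proline synthesis, fell in both genotypes, with log2 fold changes of -0.20 and -0.28 in p53+/+ and -0.66 and -0.59 in p53-/- cells. GPT2, the mitochondrial alanine aminotransferase, fell as well (-0.27 and -0.78). ASL, of arginine synthesis and named after its values were seen, was the one that rose.

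Of 16 tested genes of the ATF4 and integrated stress response, 3 rose and 6 fell in p53+/+ cells, near the background of 60.7% called, and 6 rose and 8 fell in p53-/- cells (background 58.8%). ATF3, a stress-induced factor, went from 4.53 ± 0.349 to 12.5 ± 0.457 and from 6.47 ± 0.467 to 24.4 ± 0.785 FPKM, and SESN2, an inhibitor of mTORC1, from 5.77 ± 0.487 to 21.5 ± 0.3998 and from 8.19 ± 0.381 to 14.3 ± 0.716. DDIT4, another mTORC1 inhibitor, fell (log2 fold changes -1.54 and -0.83), and DDIT3 (CHOP) rose by 0.46 and 1.03 on the log2 scale. ATF4 itself, ASNS and TRIB3, named here after their values were seen, were at -0.37, -0.14 and -0.31 in p53+/+ depletion (adjusted p = 0.00789, 0.108 and 5.02e-05) and at -0.71, -0.66 and -0.70 in p53-/- depletion (adjusted p = 8.67e-05, 7.75e-06 and 6.38e-08). Between the controls 12 of the 16 were higher and 1 lower in p53-/- cells (background 36.7% and 26.6%).

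Of 28 genes of amino acid sensing by mTORC1, 18 rose and 2 fell in p53+/+ depletion and 16 rose and 8 fell in p53-/- depletion (background 28.5% higher and 32.2% lower, then 28.9% and 29.9%). The sestrin gene SESN3 had a mean of 0.922 ± 0.213 FPKM in the p53+/+ controls and 5.18 ± 0.213 with depletion. Its p53-/- means were 0.0433 ± 0.0137 for controls and 0.179 ± 0.0182 for depleted libraries. It is among the risen genes in p53+/+ cells, passed the filter through those depleted libraries and was far below it in p53-/- cells, so no test is given for it and the genotypes are not compared. SESN1, a sestrin and known p53 target, rose by 1.37 and 0.52, the arginine sensor CASTOR1 by 1.36 and 1.05 and the Ragulator subunit LAMTOR2 by 0.93 and 0.35. Of 6 glutamine and glutamate enzymes, 3 rose and 1 fell in p53+/+ cells and 4 rose and 1 fell in p53-/- cells, and glutamine synthetase GLUL was the one that fell (-0.27 and -0.35). Of 9 genes of branched-chain amino acid breakdown, 4 rose and 2 fell in p53+/+ cells and 4 rose and 3 fell in p53-/- cells, with 60.7% and 58.8% of all genes called, BCKDHA at -0.60 and -0.51 among those that fell. Of 8 genes of glutathione synthesis and cystine handling, 4 rose and none fell in each genotype, with GSR at 0.25 and 0.42 and GGT1, which has near-identical copies, at 1.16 and 0.87.

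Among 9 other amino acid and peptide carriers, 4 rose and 1 fell in p53+/+ cells and 2 rose and 2 fell in p53-/- cells. Of all genes 60.7% and 58.8% were called in these comparisons. The mitochondrial glutamate carrier SLC25A22 fell (-0.48 and -0.94), and the lysosomal cationic carrier SLC66A1 rose by 0.49 and 0.34. Of 5 accessory proteins, CD44, which is known to stabilise SLC7A11 at the surface, fell, at -0.97 and -0.67 (adjusted p = 8.80e-10 and 2.14e-08), and the integrin ITGB1, which binds SLC3A2, rose by 0.65 and 0.71. In the list of accessory proteins 2 rose and 2 fell in p53+/+ cells and 3 rose and 1 fell in p53-/- cells, beside the same background. These lists were read by counts and medians, and no list was tested as a set.

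**Figure D5:**
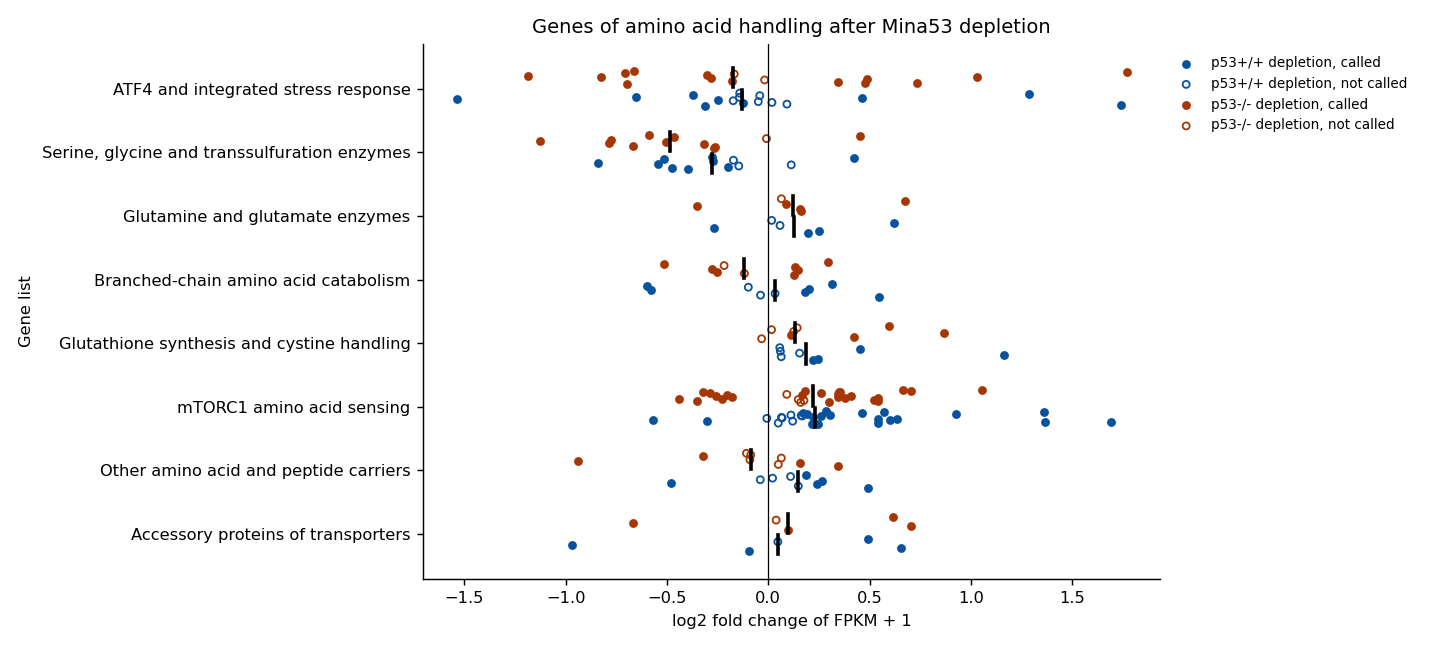
Log2 fold change after Mina53 depletion of each tested gene (dots) in the 8 lists, in p53+/+ and p53-/- cells, with the list median as a black bar and filled dots for genes past the threshold. The median of the serine and glycine list lies at -0.28 and -0.49, and that of the mTORC1 sensing list at 0.23 and 0.22.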

How the data were processed

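The authors deposited 1 table of gene symbols by libraries with no unit in its header. The deposited values were read as FPKM: they are not whole, and ND4L and ND4, neighbours of unequal length, had a ratio of 0.970 to 1.06. The genome build was hg19, per the submitters' processing notes. Aligner, quantification tool, strand use and gene models are not named in those sources. Depth cannot be recovered, so no counting interval is given. Groups came from sample titles, and columns prefixed KO were read as p53-/-. Log2(FPKM + 1) was fitted with limma 3.58.1 (R 4.3.3), with a variance trend and 8 residual degrees of freedom over all 12 libraries, for 5 comparisons. Benjamini-Hochberg adjustment covered the 13728 genes past the filter, at 0.05. Such fold changes understate those of low genes. The script was tested on simulated data. All tested members are described, and genes named from a list are among its 4 of smallest p unless stated. Some genes are not reported here. The members and lists were chosen with earlier results of these data known. Of 18 same-numbered pairs of libraries, 1 had a correlation of deviations over 0.1, so no pairing was used. Alternatives were a pseudocount of 0.1, no filter, TMM-type scaling, mitochondrial genes left out, no variance trend, compared groups alone, a replicate block and each library left out. Promoters are from RefSeq, GRCh38.p14.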

Additional observations from a re-analysis of the deposited data

Results flagged for a closer look

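For 14 of the 29 tested carriers the effect of depletion differed between p53-/- and p53+/+ cells by the test of the difference itself (log2, p53-/- minus p53+/+, limma adjusted p). This is 48.3% of the members, against 32.9% of all genes tested. In 10 the effect was lower in p53-/- cells (background 16.2%). Among the carriers of glutamine, leucine and other neutral amino acids, the differences were -0.86 for SLC1A5 (adjusted p = 1.11e-06), -0.61 for SLC7A5 (adjusted p = 2.43e-05) and -0.56 for SLC7A6 (adjusted p = 0.00137). SLC1A4, at -0.41, is counted among the 10 but passed the filter through its p53-/- libraries, so no test is given for it. SLC38A10 was at -0.39 (adjusted p = 0.0112). SLC6A17 was at -0.69 and the glycine carrier SLC6A9 at -0.38. The lysosomal carriers SLC38A7 and SLC36A1 were at -0.66 and -0.34, and the glutamate carrier SLC1A1 at -0.29. In 4 the effect was higher in p53-/- cells (background 16.7%): SLC38A2 at 0.55, SLC36A4 at 0.45, SLC1A3 at 0.32 and SLC38A5 at 0.22. For SLC1A3, SLC1A5 and SLC36A1 both effects were called rises, for SLC7A5, SLC6A17 and SLC1A1 both were called falls, and for SLC38A7 and SLC7A6 the called directions were opposite. The differences of SLC1A1, SLC36A4 and SLC38A5 were lost with some single libraries left out.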

How the results depend on the processing

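Of the 98 calls, 83 held under every alternative that gave a value. SLC38A3, with 3 of these calls, fell below the filter and gave none when any 1 of the 3 p53+/+ controls was left out. Calls lost somewhere were those of SLC38A5, SLC7A11 and SLC7A6 in p53+/+ depletion, SLC38A1, SLC38A7 and SLC38A9 in p53-/- depletion, SLC1A1, SLC36A4 and SLC38A5 in the difference, SLC6A16 between controls, and SLC38A10, SLC38A2, SLC43A1, SLC7A6 and SLC7A8 between depleted cells. The number of carriers with a higher effect in p53-/- cells went from 4 to 2 with no filter, where more genes are tested, and ranged from 2 to 5 with 1 library left out; it was 2 without p53+/+ depleted replicate 3 or p53-/- control replicate 2. The other counts stayed within 1.5 times. Changes of sign concerned uncalled values near 0: with mitochondrial genes left out, 0.042 for SLC38A9 in p53+/+ depletion and 0.014 for SLC7A2 in p53-/- depletion, and with TMM-type scaling, -0.018 for SLC1A1 between controls and -0.015 for SLC36A1 between depleted cells. The cause was not tested. With 1 library left out, log2 values that changed sign ranged as follows. In p53+/+ depletion they were -0.058 to 0.10 for SLC38A10, -0.14 to 0.088 for SLC38A9, -0.0013 to 0.090 for SLC6A16 and -0.044 to 0.055 for SLC7A2. In p53-/- depletion they were -0.031 to 0.16 for SLC38A6, -0.0027 to 0.055 for SLC3A2, -0.012 to 0.16 for SLC6A16 and -0.078 to 0.047 for SLC7A2. In the difference they were -0.12 to 0.017 for SLC43A3, -0.056 to 0.11 for SLC6A16 and -0.085 to 0.041 for SLC7A2. In the comparison of controls they were -0.020 to 0.081 for SLC1A1, -0.045 to 0.15 for SLC36A4 and -0.19 to 0.066 for SLC38A6. In the comparison of depleted cells they were -0.047 to 0.17 for SLC38A9.
The replicate numbers did not pair the samples (correlations of -0.23 to 0.16, and 3 of 12 libraries correlated best with their own number), and a replicate block left 141 of 145 results on their side of the threshold; SLC38A9 in p53-/- depletion was lost (adjusted p = 0.0673), SLC6A16 in the comparison of depleted cells was gained (adjusted p = 0.0294), SLC7A6 in the comparison of depleted cells was lost (adjusted p = 0.0559) and SLC7A8 in the comparison of depleted cells was lost (adjusted p = 0.0666). Depth is unknown, so how far it limits low genes could not be assessed.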
